A study of Mus musculus with 2031 samples.

Results

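Glutamate receptors of astrocytes are described here through 6 genes, Gria1, Gria2, Gria4, Grin2c, Grm3 and Grm5, which were chosen by name and read in single cells of the adult mouse cortex and hippocampus. They are 6 of 49671 gene identifiers counted, and all 6 were found. The cells came from C57BL/6J mice at postnatal day 56, with no treatment and no altered allele in any group. Single viable cells were sorted into plate wells for a surface epitope of ATP1B2 (the ACSA-2 antibody), after exclusion of O1-positive oligodendrocytes, and their polyadenylated RNA was made into Smart-seq2 libraries, which cover whole transcripts. There were 2 cortical and 2 hippocampal cell suspensions. Each cortical suspension came from 1 mouse, both of the same litter, and each hippocampal one from 4 pooled littermates of a litter of its own, so region, litter and pooling cannot be told apart. The study's own cell types were used, which split astrocytes into 5 subtypes named AST1 to AST5. Those types were found by clustering these same counts, so differences of a gene between them are given as a description, without a test.

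Of 2030 cells, 1781 were typed as astrocytes: 657 AST1, 555 AST2, 452 AST3, 91 AST4 and 26 AST5. AST2 was mainly cortical, with only 10 and 22 of its cells in the hippocampal suspensions, while AST1 was mainly hippocampal and 89 of the 91 AST4 cells came from the 2 hippocampal suspensions. The other types were mural cells of vessel walls, the most numerous, endothelial cells (30), neuronal cells (17, all hippocampal), microglial cells (11) and oligodendrocytic cells (9). Counts assigned to genes ranged from 600758 to 3238215 per cell, with a median of 1458411. All 9 astrocyte markers were found in more than 50% of the cells of AST1, AST2, AST3 and AST5. In AST4 this held for 6 of the 9, with Aqp4 in 41.8%, Gjb6 in 31.9% and Aldh1l1 in 15.4% of cells. The study proposes that AST4 cells are stem or progenitor cells of the hippocampus, and mapped them mostly to its subgranular zone. The neuronal cells held Snap25, Syt1 and Stmn2 in 88.2% and Celf4 in 94.1% of cells, and 6 of the 10 neuron markers were at 0 in all of them (Rbfox3, Nrgn, Camk2a, Slc17a7, Gad1 and Gad2), among them the markers of excitatory and inhibitory transmitter type.

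Glutamate acts on cells through ion channels and through receptors coupled to G proteins. AMPA receptors (Gria genes) are fast cation channels, and those that contain the Gria2 subunit let little calcium through. NMDA receptors (Grin genes) need both glutamate and a co-agonist, and the Grin2c subunit gives channels that are only weakly blocked by magnesium. Of the metabotropic receptors, Grm3 couples to inhibitory G proteins and lowers cyclic AMP, and Grm5 couples to Gq and phospholipase C and releases calcium from internal stores. In astrocytes these receptors are known as sensors of transmitter that escapes from synapses, and Grm5 as a receptor that is prominent in young astrocytes.

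What sets the calcium permeability of an AMPA receptor is the codon at the tip of its pore loop. In RNA of Gria2 that glutamine codon is edited by an adenosine deaminase and then read as arginine. The coding strand around it is shown for the 3 AMPA receptor genes, 5′ to 3′, 30 bases each, with the glutamine codon in capitals, as the GENCODE transcripts of build GRCm38 give it.
Gria1: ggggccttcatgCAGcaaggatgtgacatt
Gria2: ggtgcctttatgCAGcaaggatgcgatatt
Gria4: ggtgcctttatgCAAcaaggatgtgacatt
The stretches lie in coding exons, in exon 11 of 16 of Gria1 (chr11:57243082-57243111, plus strand), exon 11 of 16 of Gria2 (chr3:80706896-80706925, minus strand) and exon 12 of 17 of Gria4 (chr9:4464122-4464151, minus strand). Gria1 differed from Gria2 at 4 of the 30 bases, and Gria4 differed from each of the others at 3. Counts per gene say how much RNA of each subunit was sampled, and hold nothing on editing.

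Only 3 of the 6 genes were common in these astrocytes. Grm3 had at least 1 count in 91.4% of the 1781 cells, Gria2 in 80.01% and Grin2c in 48.1%. Gria1 had a count in 93 cells (5.22%), Grm5 in 38 (2.13%) and Gria4 in 6 (0.337%). When each cell was thinned to 50000 counts, the shares were 83.2% for Grm3, 70.7% for Gria2, 43.7% for Grin2c and 4.49% for Gria1, in the same order. In CPM (counts of a gene for every 1e6 counts of all genes), as the mean ± SD of the 4 suspensions, Grm3 stood at 794 ± 166.1, with 0.470% of the 26170 genes that had a count in astrocytes above it. Gria2 stood at 449 ± 31.98 CPM (1.06% of genes above it) and Grin2c at 209.1 ± 40.7 CPM (2.58%). The 3 rare genes stood at 19.2 ± 7.03 CPM (Gria1), 6.88 ± 4.72 CPM (Grm5) and 0.834 ± 1.00 CPM (Gria4). Reads rise with transcript length, so levels between genes were compared as CPM per kilobase of annotated exon, where Grm3 had 260 ± 54.5, Grin2c 41.5 ± 8.08, Gria2 28.9 ± 2.06, Gria1 3.18 ± 1.16, Grm5 0.671 ± 0.461 and Gria4 0.132 ± 0.159. Grm3 was above the others by more than the spread of the suspensions, while the order of Grin2c and Gria2 depends on the exon length, which for Gria2 (15548 bases) counts every annotated exon.

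The rare receptors differed in how much of them a positive cell held. Cells with Gria1 held a median of 438 counts of it, against 598 for Gria2 in the far larger number of cells that had it, and 11.8% of the Gria1-positive cells had fewer than 10 counts. The median of the 38 cells with Grm5 was below that of Gria1, 15.8% of them had fewer than 10 counts, and a single cell held 16.9% of all Grm5 counts. Of the 6 cells with Gria4, 33.3% had fewer than 10 counts, and the lowest had 1. Intervals and floors on such shares cover counting error only, because PCR copies without molecular identifiers are not independent molecules.

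**Figure D1:**
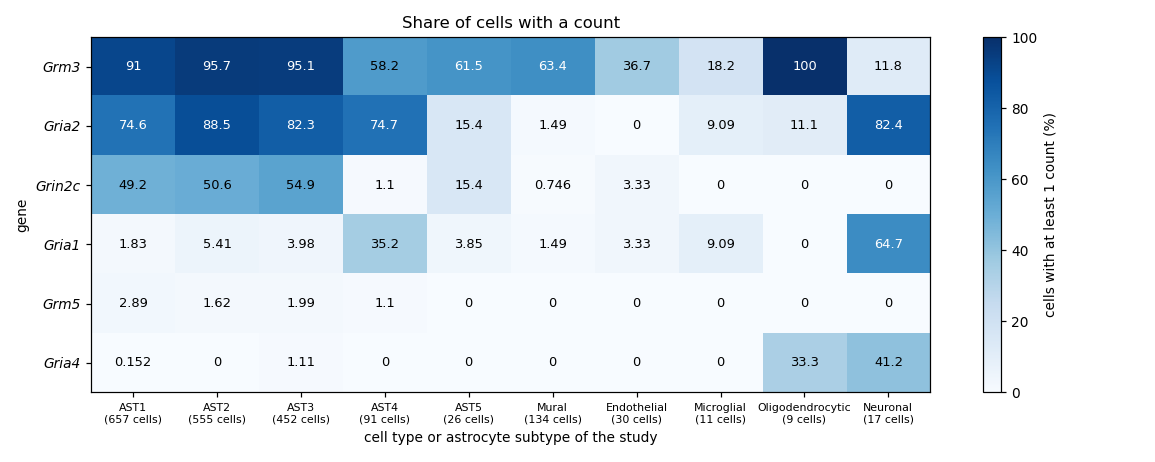
Share of cells with at least 1 count of each gene (rows) in each astrocyte subtype and other cell type of the study (columns, with their number of cells), in percent. Grm3 and Gria2 fill most astrocyte columns, Grin2c is present in AST1 to AST3 and near 0 in AST4, and Gria1 stands out in AST4 (35.2%) and in neuronal cells (64.7%).

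Gria2, the AMPA subunit that lowers calcium permeability, was the common AMPA receptor gene of these astrocytes. It had a count in 88.5% of AST2, 82.3% of AST3, 74.7% of AST4, 74.6% of AST1 and 15.4% of AST5 cells. In AST2 its level was 577 and 579 CPM in the cortical and 929 and 613 CPM in the hippocampal suspensions, a mean of 674 ± 170 CPM. AST3 followed with 460 ± 188 CPM, AST1 with 432 ± 128 CPM (n = 4 each) and AST4 with 421 ± 24.3 CPM (n = 2), and these neighbours in the order did not differ beyond their spread. In AST5, at 26.6 ± 31.8 CPM (n = 3), all 3 values were below every value of the other subtypes. AST5 cells had a median of 1191244 gene counts and a median ratio of gene counts to counts of the ERCC RNAs added to each cell of 15.8, against 1469312 and 22.004 in all astrocytes. The 5 oligodendrocyte markers summed to 395 CPM in AST5 (0.23 to 1036 CPM by sum), against 47.03 to 76.3 CPM in AST1 to AST3, and their part in the levels of AST5 was not tested. Outside astrocytes Gria2 was mostly found in the neuronal cells, where 82.4% of cells had a count and the 2 suspensions held 433 and 727 CPM. Only 2 mural cells (1.49%) and 0 of 30 endothelial cells had a count of it, and the latter allows a share of up to 10%. The median depths of these types were 1216970.5 counts in mural and 1371875 in endothelial cells, against 1469312 in astrocytes. Their median ratios of gene counts to ERCC counts were 13.4 and 19.4, against 22.004.

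Gria1, a subunit that forms calcium-permeable channels where Gria2 is missing, was most frequent in AST4 among the astrocytes. It was found in 35.2% of AST4 cells (34.1% after thinning) and in 5.41% of AST2, 3.98% of AST3, 3.85% of AST5 and 1.83% of AST1 cells. The 41 AST4 cells of hippocampal suspension 1 held 125.6 CPM and the 48 of suspension 2 held 226.05 CPM, while the AST1 to AST3 cells of those suspensions held 11.5 and 1.81 CPM. Both AST4 values were therefore above those of the other astrocytes of the same mice, by 10.9 and 125 times. The lower levels came from only 11 and 7 positive AST1 to AST3 cells. By share of cells, AST4 had 31.7% and 39.6%, against 3.18% and 1.85%. The highest value in any other subtype was 65.1 CPM, in the 10 AST2 cells of hippocampal suspension 1. Of the 32 AST4 cells with Gria1, 24 (75.0%) also held Gria2, a share close to that of Gria2 in all AST4 cells. Per kilobase of exon, Gria1 and Gria2 were at similar levels in AST4 (29.1 and 27.05 CPM), whereas in AST1 to AST3 Gria1 was at 1.54 to 4.03 and Gria2 at 27.8 to 43.4. That likeness depends on the exon length of Gria2, which counts every annotated exon. In CPM, AST4 held 421 of Gria2 and 175.8 of Gria1. AST4 made up 10.4% and 11.2% of the astrocytes of the hippocampal suspensions, and held 55.5% and 94.1% of their Gria1 counts.

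Outside astrocytes, among sums of at least 5 cells, Gria1 was highest in neuronal cells, at 64.7% of 17 cells and 797 and 533 CPM. A sum of 3 microglial cells of cortical suspension 1 held 210 CPM, all of it in 1 cell. Neuron markers were read beside it. At least 2 of the 10 markers had a count in 1 of the 32 AST4 cells with Gria1 and in 2 of the 59 without it, and Gria1 was found in 31 of the 88 AST4 cells with at most 1 such marker (35.2%). The summed level of the 10 neuron markers was between 59.2 and 76.0 CPM in the AST4 sums, between 19.5 and 27.9 CPM in all astrocytes by suspension, and between 2590 and 3045 CPM in neuronal cells. No AST4 cell held 2 or more of the 5 markers of oligodendrocyte precursors.

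Gria4, the AMPA subunit best known in glia from the Bergmann cells of the cerebellum, was nearly absent. Its 6 positive astrocytes were all hippocampal, 5 of them AST3 and 1 AST1, and all 6 also held Gria2. In the cortex it had 0 counts in 960 astrocytes, which allows a share of up to 0.313%. Among neuronal cells it was found in 7 of 17 (41.2%), at 198.3 and 156.04 CPM, and in 3 of 9 oligodendrocytic cells.

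**Figure D2:**
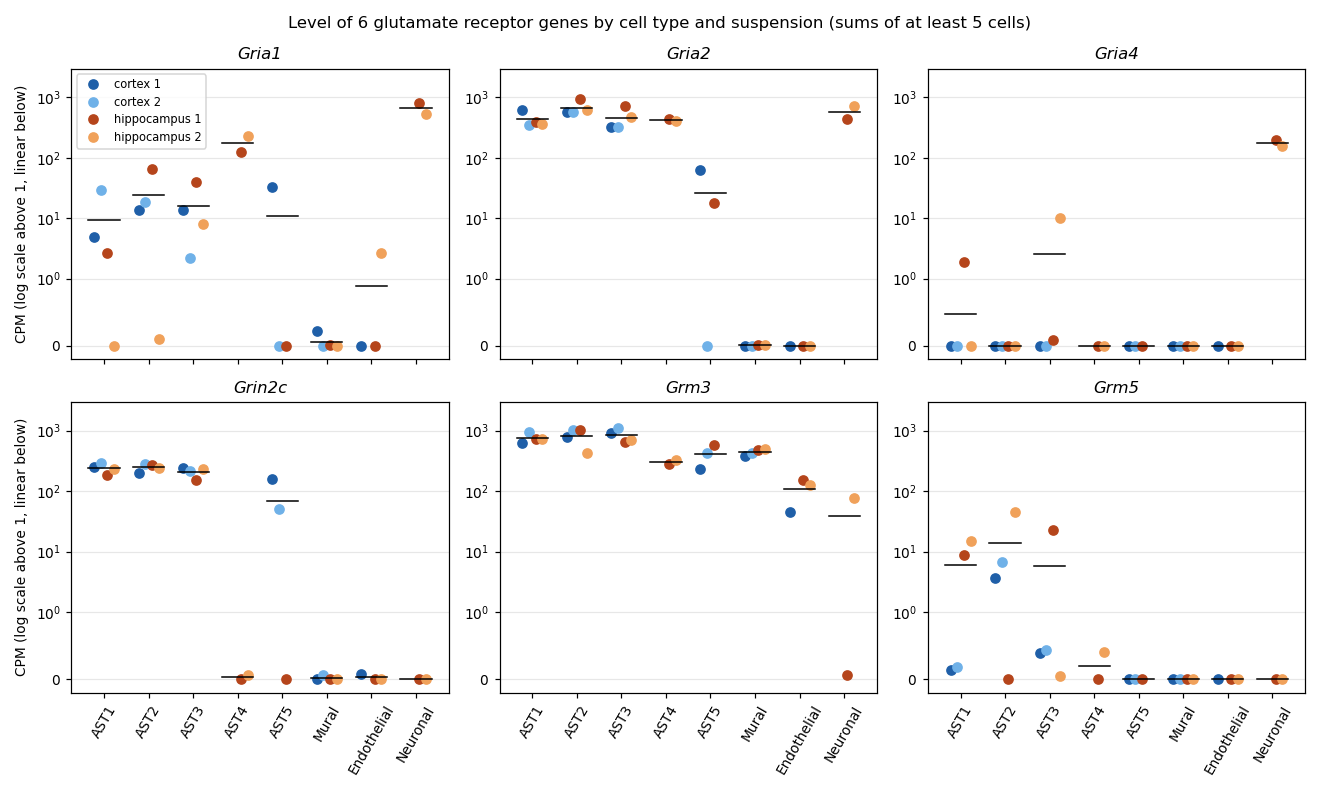
Level of each gene in CPM (log scale above 1 and linear below) in every sum of at least 5 cells, by astrocyte subtype or cell type. Points are suspensions (blue cortex, orange hippocampus) and lines their mean. Gria1 is highest in AST4 and neuronal cells, Grin2c drops to near 0 in AST4, and Grm3 is the only one of the 6 with more than 100 CPM in all 4 suspensions of mural cells.

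Grin2c, the NMDA receptor subunit, split the astrocytes in another way. It had a count in 54.9% of AST3, 50.6% of AST2 and 49.2% of AST1 cells, with levels of 209.4 ± 39.5, 247.8 ± 33.9 and 238.8 ± 45.8 CPM (n = 4), which did not differ beyond their spread. In AST5 the share was 15.4% and the level 69.5 ± 80.7 CPM (n = 3). In AST4 only 1 of 91 cells had a count. The 41 AST4 cells of hippocampal suspension 1 had 0 counts and the 48 of suspension 2 had 4, while the AST1 to AST3 cells of the same suspensions held 178.5 and 228.8 CPM. In suspension 1 the AST1 to AST3 level was 3691 times a floor of 3 counts in the AST4 sum. That floor treats reads as independent molecules, so the ratio is no lower bound. By cells, 0 of 41 allows a share of up to 7.32% in AST4, against 45.4% found in AST1 to AST3 there. Grin2c was absent from neuronal cells (0 of 17, which allows a share of up to 17.6%) and had a count in 1 mural and 1 endothelial cell, each with under 1 CPM.

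Grm3, which lowers cyclic AMP through inhibitory G proteins, had the highest level per kilobase of the 6 genes in every astrocyte subtype, with means from 99.1 CPM per kilobase in AST4 to 275.8 in AST3. It had a count in 95.7% of AST2, 95.1% of AST3, 91.02% of AST1, 61.5% of AST5 and 58.2% of AST4 cells. Its level was 841 ± 212.6 CPM in AST3, 815 ± 284.3 CPM in AST2 and 755 ± 128 CPM in AST1 (n = 4), which overlapped, and 415 ± 176.97 CPM in AST5 (n = 3). The 2 AST4 sums, at 277.9 and 326.4 CPM, were below all the sums of AST1 to AST3, the lowest of which was 422 CPM. Against AST1 to AST3 of the same suspensions they were at 0.387 and 0.463 times the level, whereas Gria2 was at 0.937 and 0.996 times.

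Grm3 was also the only one of the 6 that was common outside astrocytes and neuronal cells. A count was found in 85 mural cells (63.4%), where the 4 suspensions held 387, 429, 480 and 495 CPM, in all 9 oligodendrocytic cells, in 36.7% of endothelial, 18.2% of microglial and 11.8% of neuronal cells. The 7 mural markers summed to 15847 CPM in endothelial cells, against 49292 CPM in mural cells. Their part in the endothelial Grm3 was not tested. In CPM all 4 mural sums lay above the 2 AST4 sums, which were both hippocampal (277.9 and 326.4 CPM). Cortical AST4 cells were too few for a sum. The mural sums lay below those of AST1 to AST3, apart from the 22 AST2 cells of hippocampal suspension 2 (422 CPM). Per 10000 ERCC counts the mural level lay below AST4, at 59.9 against 62.1 in hippocampal suspension 1 and 67.3 against 82.7 in suspension 2. The mural cells carried Pdgfrb (98.5%), Rgs5 (97.8%), Vtn (99.3%) and Kcnj8 (92.5%), markers of pericytes, while the smooth muscle markers Acta2, Tagln and Myh11 were in 2.99%, 2.99% and 11.9% of them, at 448, 3.31 and 113.8 CPM. The 9 astrocyte markers summed to between 3170 and 3485 CPM in mural cells, against 43466 to 45171 CPM in astrocytes. Atp1b2, the antigen of the sort, alone stood at 2897 CPM in mural cells and in 99.3% of them. Counting the other 8 markers, Grm3 was found in 65.2% of the 89 mural cells with at most 1 of them and in 27 of the 45 with 2 or more.

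Grm5, the receptor of the phospholipase C pathway, was rare in every subtype, with a count in 2.89% of AST1, 1.99% of AST3, 1.62% of AST2 and 1.10% of AST4 cells. None of the 26 AST5 cells had a count, which allows a share of up to 11.5%, and none of the cells of other types did. Its level reached 45.4 CPM in the 22 AST2 cells of hippocampal suspension 2 and 22.5 CPM in the 65 AST3 cells of suspension 1, and stood at or below 14.8 CPM in the other sums. These 2 levels came from 2 and 5 positive cells, and no sum held more than 10.

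All 3 common receptors had a count in 36.4% of astrocytes, where their separate shares multiply to 35.2%. Gria2 and Grm3 without Grin2c were found in 38.2%. None of the 3 had a count in 2.47% of astrocytes, above the 0.891% that the shares of the pooled subtypes multiply to, and 26 of these 44 cells were AST4 or AST5. By subtype the share with none was 2.44% against a product of 1.16% in AST1, 0.360% against 0.246% in AST2 and 0% against 0.389% in AST3, and the share with all 3 was above its product in AST1 (34.6% against 33.4%) and below it in AST2 (41.8% against 42.9%) and AST3 (41.4% against 42.96%). In AST4 and AST5 the shares with none (17.6% and 38.5%) were above their products (10.4% and 27.5%). All 3 were found in 1 cell of AST4 and 1 of AST5 (1.10% and 3.85%). That is too few to set against their products (0.478% and 1.46%). In AST4 Gria2 and Grm3 occurred together in 50.5% of cells, against 43.5%. Gria2 and Grm3 occurred together in 74.6% of cells, where their separate shares multiply to 73.1%, and Gria2 and Grin2c in 38.6%, against 38.5%. Spearman's rho between the levels of 2 of these genes over the AST1 to AST3 cells of 1 suspension lay between -0.11 and 0.10 in all 12 cases, a weak relation over cells that share a suspension. Of AST4 cells, 49.5% held Gria2 and Grm3 without Grin2c, 24.2% Gria2 as the only one of the 3, and 17.6% none.

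**Figure D3:**
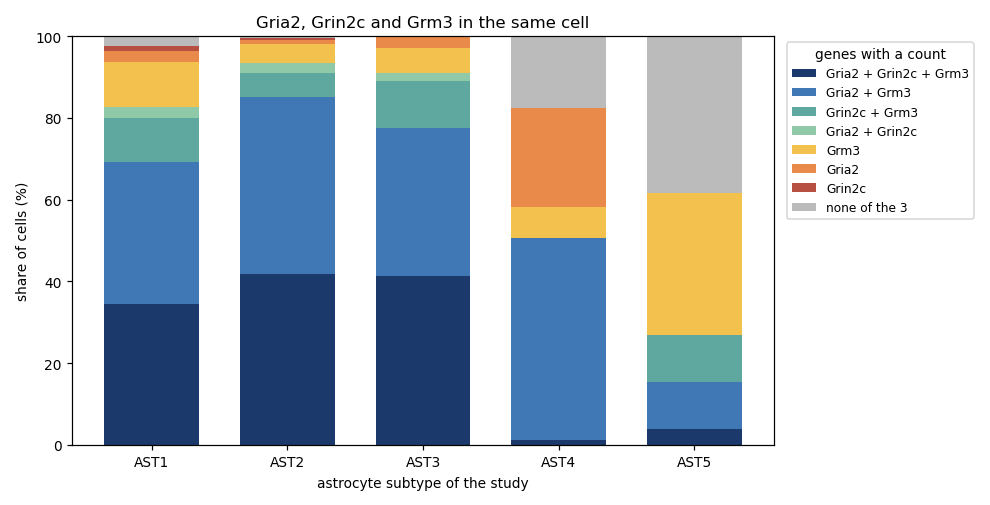
Share of cells of each astrocyte subtype (percent, stacked bars) by which of Gria2, Grin2c and Grm3 had a count in the same cell. AST1, AST2 and AST3 hold all 3 in 34.6%, 41.8% and 41.4% of cells, AST4 in 1.10%, and 38.5% of AST5 cells hold none.

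Genes whose level followed each receptor most closely were sought over the 26 sums of a type and suspension, among 9760 genes with a mean of at least 10 CPM. For Grin2c they were Gm13322 (r = 0.99), Etnppl (0.97) and Gabrg1 (0.96), and over the 17 astrocyte sums alone the values were 0.97, 0.93 and 0.90. For Gria2 they were 9330159F19Rik (0.95), 3110039I08Rik (0.93) and C130071C03Rik (0.93), with 0.89, 0.79 and 0.86 over astrocyte sums. Grm3 was nearest to Slc48a1 (0.91), Slc25a5 (0.88) and Rab31 (0.88), and over astrocyte sums alone the values were 0.68, -0.04 and 0.28. For Gria1, Bex2 (0.82) was nearest, with 0.56 over astrocyte sums, for Gria4 it was Plch2 (0.98 and 0.87) and for Grm5 Plpp4 (0.83 and 0.79). Over astrocyte sums the value of Gria4 rests on 6 positive cells. Its highest sum, at 10.02 CPM, came from 3 of them, in AST3 of hippocampal suspension 2. These correlations are across sums that share suspensions, and describe which cell types hold both genes.

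The rest of the glutamate receptor genes were low in astrocytes. Of 20 other ionotropic and metabotropic receptor genes, 0 had a count in more than 25% of astrocytes and 12 had one in under 1%. By share of cells Grin2b, an NMDA receptor subunit, came first, in 21.1% of astrocytes and 36.3% of AST4 cells, but at 8.53 ± 2.77 CPM. Grin1, another NMDA receptor subunit, named after its values were seen, was at 2.10 ± 0.613 CPM in 1.52% of astrocytes. In neuronal cells it was at 126.2 CPM, in 47.1% of them. Among the highest by level were Grid1, a delta receptor that binds synaptic organisers, at 40.9 ± 11.3 CPM (8.31% of cells), and the NMDA receptor subunit Grin3a at 32.8 ± 16.2 CPM (7.75%). Per kilobase they stood at 6.85 and 2.67 CPM, nearer to Gria1 than to the 3 common receptors. Among 16 genes listed as auxiliary subunits of AMPA and kainate receptors or their relatives, Cnih1 (168.8 ± 8.05 CPM, 37.5% of cells) and Cnih4 (52.5 ± 4.38 CPM, 25.5%) were highest. These 2 cornichons are known as general cargo receptors for export from the endoplasmic reticulum, and Cnih1 was also at 105.3 CPM in mural cells. Cnih2 and Cnih3, the cornichons known as AMPA receptor partners, were at 1.21 and 0.243 CPM. Of the transmembrane AMPA receptor regulatory proteins, Cacng8 was at 16.5 ± 5.55 CPM in 17.01% of astrocytes, and Cacng5 was in 3.03% of astrocytes but in 40.7% of AST4 cells, at 211.1 CPM there. These 4 genes were chosen after their values were seen. Shisa9, which modulates AMPA receptors, stood at 43.9 ± 26.5 CPM. Of 14 genes listed as scaffolds or their partners, Nsf stood at 47.8 ± 5.41 CPM, Pick1 at 35.8 ± 8.11 CPM and Dlg1 at 25.5 ± 5.19 CPM. Nsf was also at 77.6 CPM in mural cells. Downstream of the metabotropic receptors, Gnao1, a G protein alpha subunit of the kind that Grm3 uses, was at 516 ± 83.3 CPM in 85.1% of astrocytes, and Gna11 (153.8 ± 24.5 CPM) and Plcb1 (135 ± 11.3 CPM), which act after Grm5, were in 26.7% and 30.9% of cells.

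Cortex and hippocampus were first compared over all astrocytes, summed per suspension. The levels of Grm3 were 810 and 1023 CPM in the cortical and 672 and 671 CPM in the hippocampal suspensions, and those of Grin2c were 220.7 and 255.6 CPM against 157.9 and 202.1 CPM. Both genes were lower in both hippocampal suspensions. Gria2, at 477 and 459.4 CPM in cortex and 457.7 and 403 CPM in hippocampus, was also lower in both hippocampal suspensions, with little distance between the nearest values. The rare genes went the other way. Gria1 was at 12.8 and 13.8 CPM in cortex and 22.9 and 27.3 CPM in hippocampus, Grm5 at 1.94 and 3.81 CPM against 10.1 and 11.6 CPM, and Gria4 at 0 in both cortical suspensions against 1.33 and 2.01 CPM. How many of all genes separate the regions over these sums was not counted, so such separation is not read as a result about these genes. Fewer cells with a gene and less of its RNA per cell are both in such a sum.

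With edgeR (quasi-likelihood test, p-values adjusted after Benjamini and Hochberg over 19160 genes), 0 of the 6 genes were called between regions, where 0% of all genes were (unadjusted p under 0.05 for 4 of the 6 and for 2609 genes, 13.6%). The log2 fold change of hippocampus over cortex was -0.43 for Grm3 (SE 0.14, adjusted p = 0.334), -0.38 for Grin2c (SE 0.17, adjusted p = 0.476) and -0.10 for Gria2 (SE 0.08, adjusted p = 0.760). Without 1 suspension at a time Grm3 ranged from -0.60 (without cortical suspension 1) to -0.23 (without cortical suspension 2), Grin2c from -0.57 (without hippocampal suspension 2) to -0.21 (without hippocampal suspension 1) and Gria2 from -0.19 (without hippocampal suspension 1) to -0.01 (without hippocampal suspension 2). With ERCC totals as library sizes, which moved the median of all genes by -0.22, they were -0.64 (SE 0.13), -0.59 (SE 0.19) and -0.32 (SE 0.07). It was 0.94 for Gria1 (SE 0.21, adjusted p = 0.231) and 1.94 for Grm5 (SE 0.49, adjusted p = 0.250). For Gria4 no fold is given, since both cortical sums were at 0. DESeq2 on the same sums called 4 of the 6 (Gria1, Gria4, Grm3 and Grm5) among 10.3% of genes, and limma on the mean of log2(CPM + 1) over cells called Grm3 (log2 difference -1.27, adjusted p = 0.0395) among 2.64% of genes, so the call depends on the test.

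The region difference of Gria1 over all astrocytes was not seen in the summed cells of AST1 to AST3. In AST1 to AST3 alone Gria1 was at 12.5 and 13.997 CPM in cortex and at 11.5 and 1.81 CPM in hippocampus, below the cortical values in both hippocampal suspensions. Within AST3 alone it ran the other way, at 13.5 and 2.24 CPM in cortex and 39.7 and 7.95 CPM in hippocampus (log2 1.65, SE 2.66, edgeR adjusted p = 1), where the regions overlapped and leaving out 1 suspension gave log2 values from 0.088 to 3.45 (3.45 without cortical suspension 1, 0.86 without cortical suspension 2, 0.088 without hippocampal suspension 1 and 2.39 without hippocampal suspension 2). With AST1, AST2 and AST3 counted equally its log2 fold change was -0.41 (SE 1.50, edgeR adjusted p = 1.00), which rests on 4 and 2 positive hippocampal cells in AST1 and AST2. In that reckoning edgeR called 0 of the 6 genes, where 2.61% of all genes were, DESeq2 called 2 (Gria4 and Grm5) among 19.3% of all genes, and limma called 0 among 0.462%. With the subtypes counted equally Gria2 also turned (0.30, SE 0.16, edgeR adjusted p = 0.520), while Grm3, Grin2c and Grm5 kept their direction. Grm5 was then at 4.39 (SE 1.73, unadjusted p = 0.0343, edgeR adjusted p = 0.346), from as few as 2 positive cells in a subtype and region, and its value over all astrocytes ranged from 1.52 without cortical suspension 1 to 2.52 without cortical suspension 2. In the summed AST1 to AST3 cells Gria2 was at 486 and 466 CPM in cortex and 467 and 405 CPM in hippocampus, Grm3 was at 823 and 1032 CPM against 718 and 704 CPM, Grin2c at 222.6 and 258.5 CPM against 178.5 and 228.8 CPM, and Grm5 at 1.98 and 3.87 CPM against 11.4 and 13.1 CPM. Gria2 and Grin2c then overlapped between the regions. Grm3 and Grm5 did not, but how many of all genes did not was not counted, so this is not read as a result about them.

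**Figure D4:**
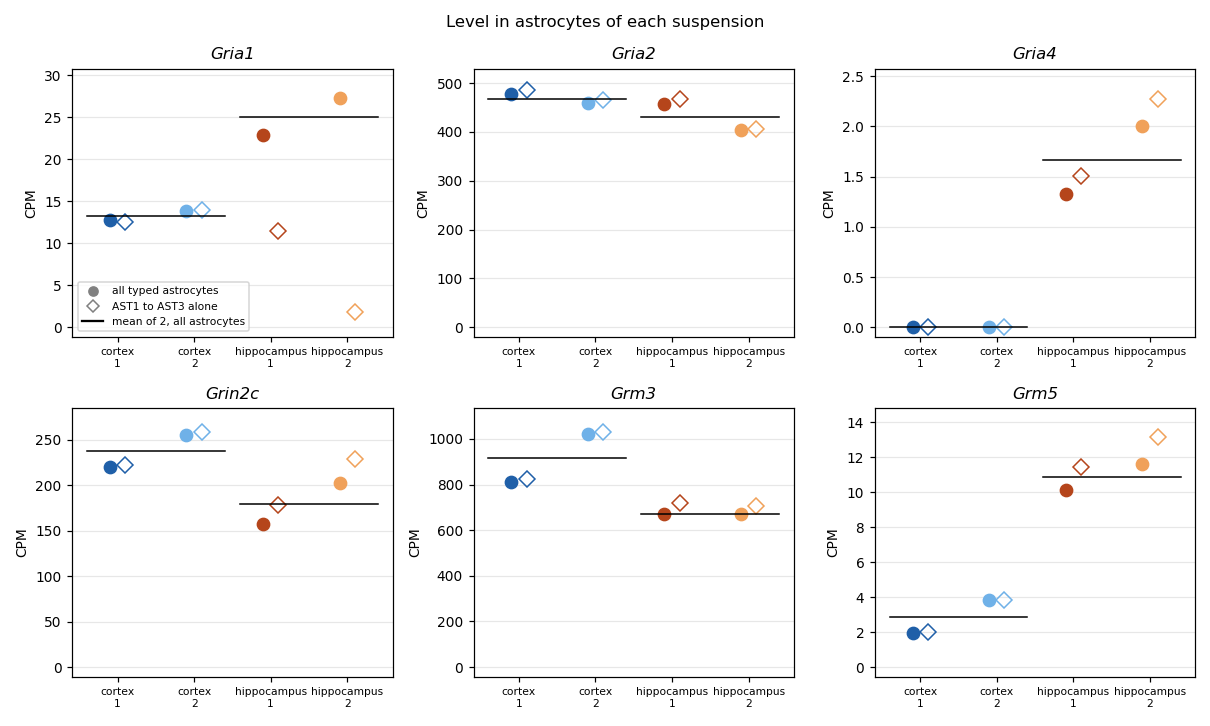
Level of each gene (CPM, linear axis from 0) in the astrocytes of the 2 cortical and 2 hippocampal suspensions. Filled circles are all typed astrocytes, open diamonds AST1 to AST3 alone, and lines the mean of the filled circles of a region. Gria1 is higher in hippocampus as filled circles and lower as diamonds, while Grm3 is lower and Grm5 higher in hippocampus in both.

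Within subtypes the common receptors were tested in 1 fit of 12 sums, over 18406 genes. By edgeR, 0 of the 6 genes were called in AST1, where 0.0109% of all genes were, 0 in AST2 (4.16% of all genes), and 0 in AST3 (0.0272%), and 1 of the 18 unadjusted p-values was under 0.05, where 5.3%, 15.8% and 4.13% of all genes were in AST1, AST2 and AST3. DESeq2 called 0 of the 6 in AST1, AST2 and AST3, where it called 8.65%, 24.5% and 6.79% of all genes, and limma 0 of the 6, where it called 0.0217%, 0.168% and 0.0978%. In AST3 the unadjusted p was under 0.05 for 3 of the 6 by DESeq2 (Gria2, Gria4 and Grm5), among 11.6% of all genes, and for 4 by limma (Gria2, Gria4, Grin2c and Grm3), among 1924 of the 18406 genes. In AST1 it was so for Grm5 by DESeq2 (13.3% of all genes) and for none by limma (5.56%), and in AST2 for none by either (28.5% and 17.2%). The unadjusted edgeR value under 0.05 belonged to Gria2 in AST3, which was at 320.7 and 322.4 CPM in the cortical suspensions and at 721 and 475 CPM in the hippocampal ones, a log2 fold change of 0.95 (SE 0.28, unadjusted p = 0.00906, adjusted p = 1). Both hippocampal values were above the cortical ones, but how many of all genes separate so was not counted, so this is not read as a result about Gria2. With ERCC totals as library sizes the value was 0.44 (SE 0.30), within 2 SE of 0, where the median of all genes moved by -0.51, and without 1 suspension it ranged from 0.63 (without hippocampal suspension 1) to 1.22 (without hippocampal suspension 2). In AST1 the same gene was at 623 and 350 CPM in cortex and 388 and 366.9 CPM in hippocampus (log2 -0.33, SE 0.28, adjusted p = 0.981). The test of the difference between those region effects gave a log2 value of -1.28 (SE 0.39, unadjusted p = 0.0114, edgeR adjusted p = 0.697), with 0% of all genes called. It was -0.82 (SE 0.45) without cortical suspension 1 and -0.85 (SE 0.42) with ERCC totals. In AST2 it was 0.29 (SE 0.28, adjusted p = 0.653), from 32 hippocampal cells.

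Grm3 had a log2 fold change of -0.54 in AST3 (SE 0.34), -0.45 in AST2 (SE 0.34) and -0.07 in AST1 (SE 0.34). Those of Grin2c were -0.21 in AST3 (SE 0.26), -0.03 in AST2 (SE 0.26) and -0.37 in AST1 (SE 0.26). The median of all genes in this fit was -0.04 in AST3, -0.89 in AST2 and 0.18 in AST1. Both genes therefore lay above the median in AST2, and below it in AST1 and AST3. In AST3 the 2 hippocampal values of Grm3, 639 and 697 CPM, were below the cortical 928 and 1099 CPM, while in AST1 the 4 values (629 and 934 against 728 and 729 CPM) overlapped. In AST2 the 2 hippocampal values, 1040 and 421.7 CPM, lay on either side of the cortical 793 and 1006 CPM, and the log2 fold change was -1.12 without hippocampal suspension 1 and -0.021 without suspension 2. No adjusted p of these 6 edgeR tests was below 0.565. None of the interaction tests of AST1 or AST2 against AST3 called any of the 6 genes, where edgeR called 0% and 2.53% of all genes, DESeq2 9.19% and 19%, and limma 0% in both. The sums of a suspension share mice, and with the suspension as a block the share of 2.53% was 0.00543%, and it was 0% when either cortical suspension was left out. For Grm3 the value was 0.47 (SE 0.48) in AST1 and 0.09 (SE 0.48) in AST2. The signs of Grin2c in AST2 and AST3 and of Grm3 and Gria2 in AST1 turned under at least 1 other scaling, test or left-out suspension.

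**Figure D5:**
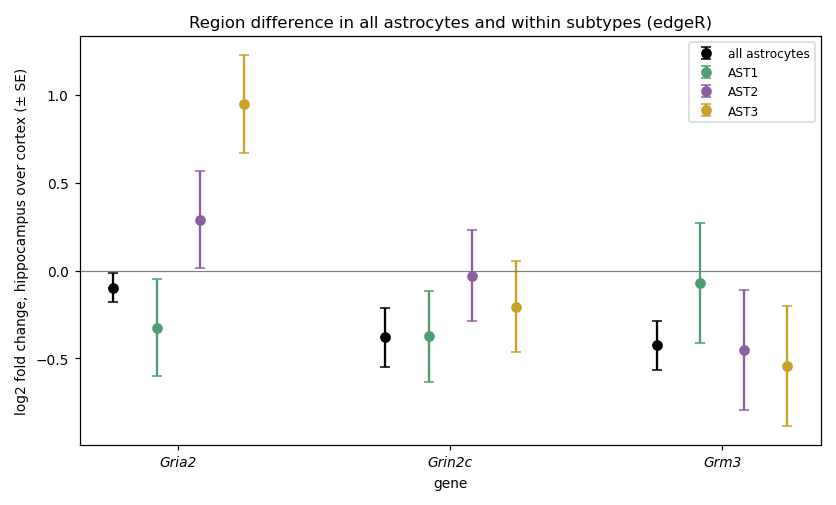
Log2 fold change of hippocampus over cortex (vertical axis, edgeR, bars are 1 SE) of the 3 common receptor genes in all astrocytes (2 against 2 sums) and within AST1, AST2 and AST3. Grm3 and Grin2c sit below 0 in every case of this fit, by less than 2 SE within each subtype, and Gria2 lies between -0.33 in AST1 and 0.95 in AST3. The median of all genes within AST2 was -0.89, below all 3 genes there.

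The regions were mixed in all 8 sequencing pools and all 4 index kits, which allowed the same comparison within a batch, without a test. Grm3 was lower in hippocampal astrocytes in 8 of 8 pools (log2 -0.79 to -0.07) and in 4 of 4 kits (-0.77 to -0.29). Grin2c was also lower in 8 of 8 pools (-0.65 to -0.05) and 4 of 4 kits (-0.60 to -0.25). Gria2 was lower in 4 of 8 pools, and Gria1 was higher in 7 of 8 (-0.52 to 3.18). Grm5 was higher in hippocampus in 6 of 8 pools, in 2 of which the cortical cells were at 0, and lower in pool C (0.112 CPM in cortex and 0 in hippocampus) and pool F (5.16 CPM and 0). By kit it was higher in 3 and lower in kit D (log2 -2.43). All pools hold cells of the same 4 suspensions, so they repeat the libraries and not the mice.

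Partner genes were compared in the same fits. Over all astrocytes, edgeR called 0 of 12 tested receptor genes, 0 of 12 auxiliary subunits, 0 of 13 scaffolds and 0 of 12 G protein genes (median log2 fold changes 0.69, -0.04, 0.34 and 0.11, against 0.01 for all genes). Within AST2 it called 2 of 50 tested, both lower in hippocampus, a share close to the 4.16% of all genes called there. Gnao1 was at 660 and 576 CPM in cortex and 352.3 and 341.6 CPM in hippocampus (log2 -0.94, SE 0.16, adjusted p = 0.0139). The scaffold Dlg4, which holds synaptic receptors in place, was at 7.54 and 5.79 CPM, in 13 and 18 of the cortical cells, and at 0 in the 32 hippocampal cells (adjusted p = 0.0406). A count of 0 in 32 cells allows a share of up to 9.38%, above the cortical share of 5.93%, so a lower share was not detectable at this number of cells. These calls held in 9 (Gnao1) and 6 (Dlg4) of 13 alternatives, and no gene was called in AST2 when either cortical suspension was left out. The median log2 fold change of all genes within AST2 was -0.89, and the value of Gnao1 was close to it.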

How the data were processed

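Poly(A) RNA of 2031 single cells was sequenced by the authors, who mapped reads with STAR 2.5.2b to GRCm38.p5 and counted uniquely mapped reads per gene with HTSeq (FastQC 0.11.4 for quality). What the authors deposited is 1 table of unnormalised counts for each cell, and a file was used for 2030 cells. A deposited table of the same counts was compared in 32 columns, equal for all 6 genes, and its other 1999 columns were not used. Of the identifiers, 49326 had a symbol. Cell types came from the authors' list (33 cells not in the copy used, 15 without a type). One cell was sorted per well, and no doublet caller was run. The strand setting of the counting is not given in the sources used here, so reads of overlapping genes may not be separated. Positions, exon lengths (the union of all exons) and sequences are from GENCODE M21, the counts from an earlier release.

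Counts were summed per suspension, or per subtype and suspension with at least 5 cells, without ERCC and unassigned reads. CPM divides by all gene counts. The test between regions was that of edgeR 4.0.16, run in R 4.3.3 (TMM, filterByExpr, robust quasi-likelihood fit, Benjamini-Hochberg, threshold 0.05), with 2 residual degrees of freedom over all astrocytes and 6 in the fit of 12 subtype sums (common biological coefficients of variation 0.903 and 1.27). The SE printed with an edgeR value is its absolute size divided by the square root of the F statistic of its test. With so few degrees of freedom, a value beyond 2 of these SE need not have a small p-value. DESeq2 1.42.0 and limma 3.58.1 were alternatives. All 3 were tested on simulated data and recovered most changes at a low spread (apart from small ones in the interaction). At a spread like that of these sums edgeR called none of the changed genes and DESeq2 called more unchanged than changed ones, so a missing edgeR call says little and DESeq2 calls are uncertain. For limma that spread was not simulated. With 2 suspensions a region, p-values rest on few degrees of freedom, and libraries of 1 suspension are not replicates. Fold changes are printed for genes with at least 5 positive cells in each region, a limit set after values were seen. The values of Gria1 and Grm5 with AST1 to AST3 counted equally fall under it in some subtypes and are printed as exceptions. Floors take 3 counts per sum. The 6 genes are always named, of each fixed list the 3 with the highest mean CPM in astrocytes and those called between regions, and for likeness the nearest 3. One gene that this rule takes is not reported here. The genes, lists and tests were chosen with earlier results of these data known. Sums of 1 suspension share mice by design. Their deviations correlated between -0.03 and 0.01.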

Additional observations from a re-analysis of the deposited data

Results flagged for a closer look

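Cells outside the typed set also held the common receptors. The 33 cells of cortical suspension 1 that the list of types did not hold had Grm3 in 93.9%, Gria2 in 75.8% and Grin2c in 45.5% of cells. They are listed because these cells lie outside the comparisons and the shares exceed the 9.09% that a count of 0 would allow, a bar that says only that the genes were detected. The shares in typed astrocytes were 91.4%, 80.01% and 48.1%, and Gria1, Gria4 and Grm5 had 0 counts in these 33 cells. Of the 15 listed cells without a type, 40% held Grm3, by the same bar of 20%. Neither set entered a comparison.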

How the results depend on the processing

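Of the recomputed region differences of the receptor genes with a printed fold, 4 became called (Grm3 under DESeq2 and limma, Gria1 and Grm5 under DESeq2, all over all astrocytes, where DESeq2 also called Gria4, which has no fold), 17 turned in direction and the others kept direction and side of the threshold. No alternative with edgeR called any of them. With AST1 to AST3 counted equally, the log2 difference over all astrocytes was -0.41 for Gria1 and 0.30 for Gria2. That of Grm3 in AST1 was 0.0091 when thinned, and that of Grin2c in AST2 was 0.15 with RLE size factors, 0.086 with library sizes alone and 0.15 with DESeq2. For the interaction with AST3, Grin2c was 0.27 with ERCC totals and 0.66 with limma in AST1, and -0.048 when thinned in AST2. Without 1 suspension at a time, values ran from -0.66 to 0.12 (Gria2) and -0.35 to 0.27 (Grm3) in AST1, -0.27 to 0.22 (Grin2c) in AST2 and -0.54 to 0.069 (Grin2c) in AST3, and for the interaction with AST3 from -0.35 to 0.037 (Grin2c, AST1), -0.13 to 0.50 (Grin2c, AST2) and -0.65 to 0.59 (Grm3, AST2). Apart from that of Gria1, these values were within 2 SE of 0 to begin with, and the cause was not tested.

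The share of all genes called moved far more. Over all astrocytes it was 0% with edgeR, 0.00521% with ERCC totals, 1.73% when thinned, 2.64% with limma and 10.3% with DESeq2. In AST1 it was 0.0109%, and 0.00543% with RLE factors or library sizes alone, 0.00549% with ERCC totals, 0.00391% with no low-count filter, 0.00734% when thinned, 0.0217% with limma and 8.65% with DESeq2. In AST2 it was 4.16%, and 0.168% with limma, 3.14% when thinned, 2.44% with no low-count filter (over more genes tested) and 24.5% with DESeq2. In AST3 it was 0.0272%, and 0.0109% with library sizes alone, 0.011% with ERCC totals, 0.0978% with limma and 6.79% with DESeq2. The interaction of AST1 with AST3 gave 0%, and 9.19% with DESeq2. That of AST2 with AST3 gave 2.53%, and 0% with limma, 0.264% when thinned, 1.26% with no low-count filter, 19% with DESeq2 and 0.00543% with the suspension as a replicate block, which left that of AST1 with AST3 at 0%. Without 1 suspension at a time, 0% was called in AST1 and AST3. In AST2 the range was 0% to 18.6% and in its interaction 0% to 14.7%, with 0% when either cortical suspension was left out, 5.58% and 3.44% without hippocampal suspension 1, and 18.6% and 14.7% without hippocampal suspension 2. Scaling by ERCC totals moved the median log2 value of all genes by -0.22 over all astrocytes and -0.51 in AST3. The calls of Gnao1 and Dlg4 in AST2 held in 9 and 6 of 13 alternatives, with adjusted p up to 0.288 and 0.340. The recomputed levels by subtype all stayed within 1 SD.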
